A study of Sus scrofa with 4 samples.

Results

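The IGFBP2 positive stroma of day 12 was a set of 1168 fibroblast-type cells from pig endometrium, the lining of the uterus, on day 12 of pregnancy. They made up 19.0% (95% exact binomial interval 18.01 to 19.98%) of the 6154 stromal cells and were drawn from 8962 kept cells of that library and 33562 kept cells of the 4 libraries. A kept cell had 1000 or more UMIs (unique molecular identifiers, which count each captured RNA molecule a single time), 500 or more genes and at most 20% mitochondrial UMIs. A stromal cell held DCN, LUM, COL1A1, COL1A2 and COL3A1 at a sum of 20000 or more per 1000000 of its UMIs, and KRT7, KRT8, KRT18, EPCAM and CLDN4 at a sum under 4000 on the same scale. KRT19, which belongs to the same epithelial list, was not used here. Members also had 2 or more IGFBP2 UMIs, no IDO1 UMI, fewer than 2 SERPINA3-2 UMIs and fewer than 5 MGP UMIs. IGFBP2 0 stroma, against which they were set, comprised 2880 cells of the same library with the same limits on IDO1, SERPINA3-2 and MGP and no IGFBP2 UMI.

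The study profiled single cells of endometrium on day 12 and on day 9 of pregnancy, and of embryos on the same days, in Sus scrofa, with 1 library per tissue and day. Endometrium was minced and dissociated with type II and type IV collagenase, dispase and DNase before droplet capture. The labels name no strain, treatment or genotype, and do not say how many animals gave tissue to a library or whether animals were pooled. With 1 library per group no difference could be checked on replicates and no test was run; all intervals are at 95% and cover counting error only.

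IGFBP2 encodes a secreted protein that binds the insulin-like growth factors IGF1 and IGF2 and holds them away from, or delivers them to, the IGF1 receptor. Endometrial stroma lies around the glands and beneath the luminal epithelium that the conceptus meets. It secretes IGFs and their binding proteins and expresses retinoid-metabolising enzymes. In the pig the conceptus elongates and releases oestrogen near the time these tissues were taken. ALDH1A1, a further marker named for these cells that the limits did not use, oxidises retinaldehyde to retinoic acid. DCN encodes decorin, a small proteoglycan that coats collagen fibrils.

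IGFBP2 UMIs per stromal cell showed no gap between a low and a high class. Counts this low cannot tell a gradient from overlapping classes. Of the 4740 stromal cells within the limits on IDO1, SERPINA3-2 and MGP, 2880 held no IGFBP2 UMI, 692 held 1, 368 held 2, 393 held 3 or 4, and 407 held 5 or more. The last 3 of these classes are the members, whose median was 3 UMIs and whose highest value was 29. Just inside the threshold were the 368 cells with 2 UMIs and just outside it the 692 cells with 1 UMI. Per 1000000 UMIs of a cell, IGFBP2 in members had a lower quartile of 925, a median of 1417 and an upper quartile of 2151. These values chose the cells and are given as a description.

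**Figure D1:**
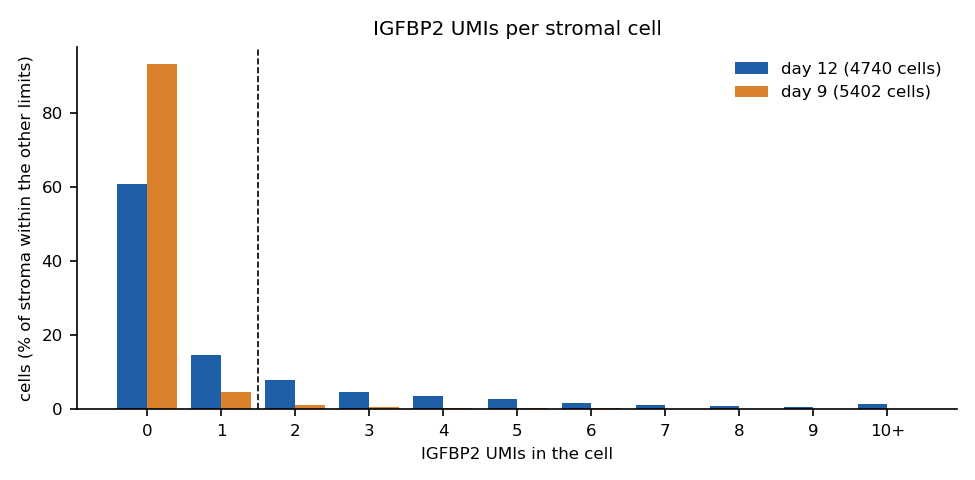
Percent of stromal cells within the limits on IDO1, SERPINA3-2 and MGP (vertical axis) by IGFBP2 UMIs per cell (horizontal axis, the last class being 10 or more), for day 12 and day 9 endometrium. On day 12, 60.8% of these cells held none and the shares decline up to 9 UMIs without a gap at the limit of 2 UMIs. On day 9 93.1% held none.

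The limits left out 517 of the 1685 day 12 stromal cells with 2 or more IGFBP2 UMIs, 395 of them through IDO1, 67 through SERPINA3-2 and 97 through MGP, with some meeting more than 1 limit. IGFBP2 at 2 or more UMIs was found in 52.8% (49.2 to 56.4%) of the 748 IDO1 positive stromal cells, whose median depth was 3023.5 UMIs, and in 24.6% of stroma within the limits. With every cell thinned at random to 1000 UMIs, cells with an IGFBP2 UMI made up 48.0% of IDO1 positive, 15.7% of SERPINA3-2 positive, 26.3% of MGP high and 27.4% of within-limit stroma. IGFBP2 was thus also present in the stroma that the limits left out. Outside the stroma, 2.14% of 887 leukocytes, 9.73% of 586 endothelial cells and 21.1% of 204 epithelial cells held 2 or more IGFBP2 UMIs, at median depths of 1800, 2931.5 and 3907 UMIs.

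The stromal label held for genes that the limits did not use. Levels are in CPM, the UMIs of a gene per 1000000 UMIs summed over a set of cells. All 12 further stromal markers (among them PDGFRA, PDGFRB, VIM and COL6A1) had UMIs in members, 2 of them below 10 CPM. Their summed level was 8901 CPM in members, 10781 CPM in IGFBP2 0 stroma and 1785 CPM in leukocytes. Of the 12, 4 were higher in members than in IGFBP2 0 stroma. Decorin, which the limit used and which is given as a description, was at 16056 CPM in members and 15886 CPM in IGFBP2 0 stroma. UMIs of other cell types were present at low levels. The 12 smooth muscle and pericyte markers summed to 238 CPM in members and 408 CPM in IGFBP2 0 stroma, and 0 of 12 were higher in members. The 10 blood endothelial markers summed to 148 CPM in both, the 9 epithelial markers to 84.1 CPM in members and 73.0 CPM in IGFBP2 0 stroma (7034 CPM in epithelial cells), and the 4 general leukocyte markers to 89.3 CPM and 120 CPM in the same order (2316 CPM in leukocytes). The epithelial markers include KRT7, KRT8, KRT18, EPCAM and CLDN4, which the limits and the epithelial class used. The general leukocyte markers include PTPRC, which set the leukocyte class. Both sums are therefore given as a description. The 11 macrophage and monocyte markers summed to 288 CPM in members, 409 CPM in IGFBP2 0 stroma and 8514 CPM in leukocytes, with a UMI in 36.3% of members and 32.4% of IGFBP2 0 cells. The 12 T and NK cell markers summed to 361 CPM in members, 470 CPM in IGFBP2 0 stroma and 6825 CPM in leukocytes, with a UMI in 38.4% of members and 32.0% of IGFBP2 0 cells. The 7 B and plasma cell markers summed to 417 CPM in members, 456 CPM in IGFBP2 0 stroma and 10597 CPM in leukocytes, with a UMI in 67.2% of members and 60.2% of IGFBP2 0 cells. Their part in the ratios was not tested. Of these lists CD163, LYZ and CD3G, and of the lymphatic and epithelial lists CCL21, RELN and CLDN3, had no UMI among the 3258230 of the members, where a count of 0 allows up to 3. The 5 ciliated cell markers summed to 307 CPM in members and 217 CPM in IGFBP2 0 stroma, of which TPPP3 alone gave 303 and 209 CPM.

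Members were sequenced more deeply than the cells they are set against. Their median was 2589 UMIs and 1146 genes per cell, against 1935.5 UMIs and 1010 genes in IGFBP2 0 stroma, and the median climbed with each IGFBP2 class from 1935.5 UMIs at 0 through 2128, 2334 and 2545 to 2915 UMIs at 5 or more. A deeper cell is more likely to show 2 UMIs of any gene. The 30 genes with the highest and lowest ratios and the medians of several lists are therefore also given with IGFBP2 0 stroma weighted to the depth deciles of the members (depth-matched), and some shares of cells with all cells thinned to 1000 UMIs; other values are at full depth. Ribosomal protein genes took 16.6% of UMIs in members and 12.0% in IGFBP2 0 stroma. The median log2 ratio of all genes tested, members over IGFBP2 0 stroma, was -0.15. The median-of-ratios shift between the sets was -0.12, and scaling on it takes that shift out of every ratio, so that CHRDL1 came to 2.24 in place of 2.12 and HPGD to -2.49 in place of -2.61. The part of the ribosomal share in this shift was not tested. All 1168 member barcodes also stand in the uncalled barcode list of the day 9 embryo, where 19 (1.63%) held 1000 or more UMIs, and 13 and 12 did so in the day 12 embryo and the day 9 endometrium.

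Of 2981 genes at 50 CPM or more in either set, 27 (0.906%) were 2-fold or more higher and 74 (2.48%) 2-fold or more lower in members than in IGFBP2 0 stroma. The 2-fold counts of the lists below stand beside these shares. With a median log2 ratio of -0.15 over all genes, most genes were lower in members, so a list with more lower than higher genes is not by itself unusual. The highest ratios were those of CHRDL1, KERA, AGT and CEMIP, and the lowest those of SULT1E1, EDIL3, HPGD and the CPM gene. The 15 highest and 15 lowest ratios are described by role, and roles that come from no list of their own were grouped after the ratios were seen. All 30 kept their direction with depth matching, with a median log2 ratio of 1.46 for the highest 15 and -2.27 for the lowest 15, against 1.38 and -2.19 without it. In cells of 1000 to 2000 UMIs (306 members, 1559 IGFBP2 0 cells), of 2000 to 4000 UMIs (720 and 1222) and of 4000 or more (142 and 99), all 30 also kept their direction.

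**Figure D2:**
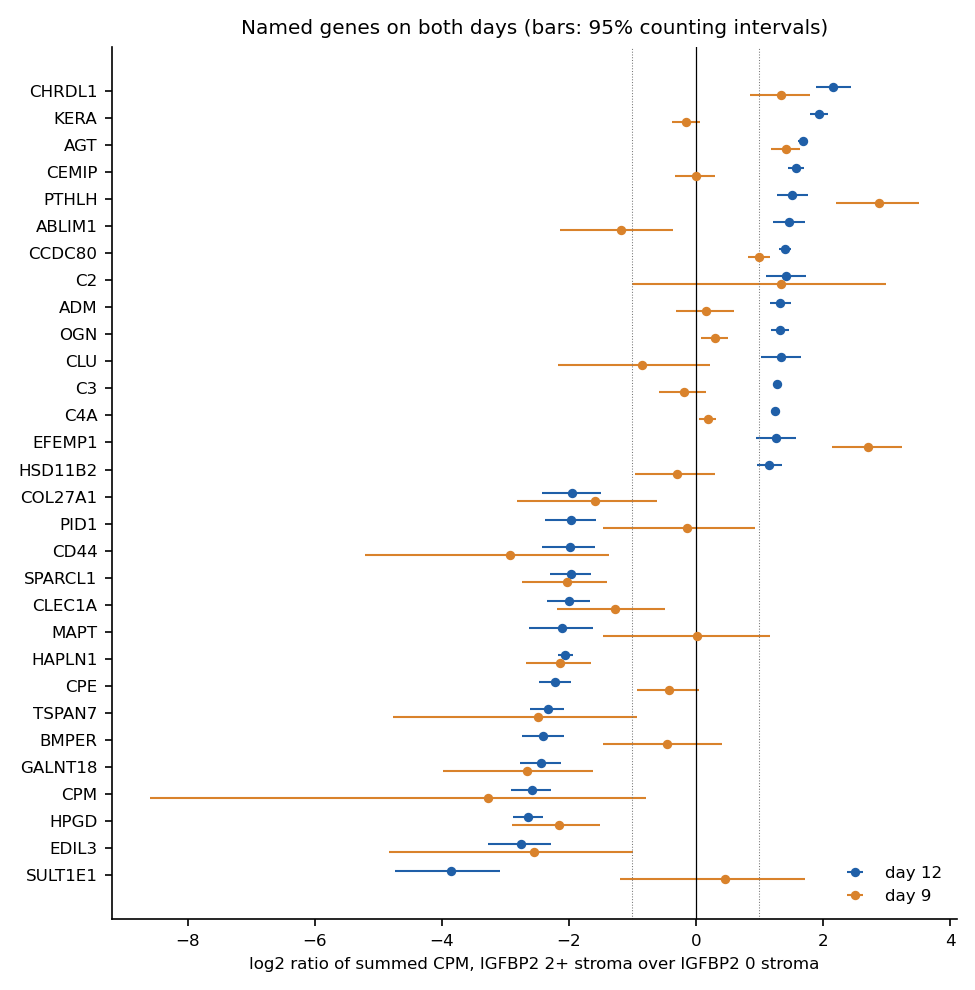
Log2 ratios of the 15 highest and the 15 lowest genes, with no CPM added and with 95% counting intervals, for day 12 members over IGFBP2 0 stroma and for day 9 cells of the same limits over day 9 IGFBP2 0 stroma. The day 12 ratios chose the genes; of the lowest 15, 13 lie below 0 on day 9 too, and of the highest 15, 9 lie above 0 there.

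Genes of retinaldehyde and retinol handling were divided. ALDH1A1 stood at 761 CPM (Poisson interval 731 to 792) in members and 364 CPM in IGFBP2 0 stroma, a ratio of 2.09 (1.97 to 2.21). An ALDH1A1 UMI was found in 62.8% of members, 38.8% of IGFBP2 0 cells and 8.68% of leukocytes, and after thinning in 42.9%, 25.2% and 4.17%. Depth-matched, its log2 ratio was 0.95, just under 2-fold. The level was higher still in MGP high stroma (1041 CPM) and in IDO1 positive stroma (833 CPM). Over the IGFBP2 classes of 0, 1, 2, 3 to 4 and 5 or more UMIs it was 364, 443, 751, 746 and 781 CPM, a step between 1 and 2 UMIs and little difference beyond. In contrast STRA6, the membrane receptor that takes up retinol, was at 162 CPM in members and 358 CPM in IGFBP2 0 stroma. Among the 11 genes of retinoid handling at 50 CPM or more, 3 were higher and 8 lower in members, with a median log2 ratio of -0.16 beside -0.15 over all genes.

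Members with and without an ALDH1A1 UMI, 733 and 435 cells, held like amounts of IGFBP2, 1551 and 1597 CPM, although the first were deeper (medians of 2802 and 2320 UMIs). KERA was at 434 CPM in members with ALDH1A1 and 266 CPM in those without, CHRDL1 at 124 and 85.5 CPM, and C3 at 2194 and 1621 CPM in the same order. HPGD was at 47.4 CPM in members with ALDH1A1 and 52.6 CPM in those without. AGT was at 1046 CPM in members with ALDH1A1 and 998 CPM in those without, C4A at 3401 and 3149 CPM, C2 at 62.4 and 66.7 CPM and CPE at 34.6 and 64.8 CPM. Among the 15 highest genes the members with ALDH1A1 thus had the higher level except for C2, by little for AGT and C4A, and depth was not matched in this split.

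Other genes of the IGF system lay on both sides of IGFBP2 0 stroma. IGF1, the growth factor itself, was at 762 CPM in members and 1143 CPM in IGFBP2 0 stroma, 1.5-fold (1.43 to 1.57) lower. IGFBP7, a low-affinity relative, was at 1261 CPM in members against 1915 CPM in IGFBP2 0 stroma. IGFBP5 was at 1627 CPM against 1251 CPM in IGFBP2 0 stroma, a ratio of 1.30, and IGFBP6, which prefers IGF2, at 104 CPM against 61.5 CPM, a ratio of 1.69. IGFBP4 was at 72.1 CPM in members and 60.7 CPM in IGFBP2 0 stroma, and the lower limit of the ratio was 1.004. In all, 4 of 7 genes of the system other than IGFBP2 were higher and 3 lower, 0 of them by 2-fold, with a median log2 ratio of 0.17 (0.03 depth-matched) beside -0.15 over all genes. IGF2 and IGFBP3 were not matched by symbol, so their levels were not read. IGFBP2 and IGFBP5 are neighbours on chromosome 15 (IGFBP2 at 118822092-118850985 in Sscrofa11.1, RefSeq), 10.8 kb apart with no annotated gene between them.

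Complement genes had the highest median ratio of the lists. C3, the component on which all complement pathways converge, was at 2007 CPM in members and 826 CPM in IGFBP2 0 stroma, 2.43-fold (2.34 to 2.52) higher. C4A, a component of the classical and lectin pathways, was at 3319 CPM in members and 1407 CPM in IGFBP2 0 stroma, 2.36-fold (2.29 to 2.43) higher, and reads of near-identical C4 copies may be shared with it. C2, which joins C4 in a convertase, was at 63.8 CPM in members, 23.9 CPM in IGFBP2 0 stroma and 114 CPM in leukocytes. Ratios stayed under 2-fold for SERPING1, the C1 inhibitor, at 2376 CPM in members and 1537 CPM in IGFBP2 0 stroma, for CFD, the protease that starts the alternative pathway, at 589.6 and 427 CPM, and for CFI, a protease that degrades C3b, at 120.0 and 96.2 CPM in the same order. C4BPA, a C4b-binding inhibitor, was at 19.0 CPM in members, 60.6 CPM in IGFBP2 0 stroma and 758 CPM in leukocytes. Its log2 ratio moved with depth, at -1.62 over all cells, -2.49 depth-matched, -0.17 in cells of 1000 to 2000 UMIs and -3.02 in cells of 4000 or more. Of 8 complement genes at 50 CPM or more, 7 were higher and 1 lower, 4 and 1 of them by 2-fold or more, and their median log2 ratio was 0.93 (0.96 depth-matched) beside -0.15 over all genes. After thinning, a C3 UMI was found in 69.0% of members and 39.0% of IGFBP2 0 cells, and in 24.5% of leukocytes. C3 was at 1881 CPM and C4A at 3299 CPM in IDO1 positive stroma, close to the members. C2 and C4A lie 34.0 kb apart on chromosome 7.

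AGT, angiotensinogen, the precursor of angiotensin, was at 1030.3 CPM in members and 320.4 CPM in IGFBP2 0 stroma, 3.22-fold (3.04 to 3.403) higher, and an AGT UMI was found in 77.0% of members, 34.8% of IGFBP2 0 cells and 11.3% of leukocytes. After thinning these shares were 55.9%, 22.8% and 4.85%. ADM, adrenomedullin, a vasodilator peptide, was at 228 CPM in members and 90.9 CPM in IGFBP2 0 stroma, 2.51-fold (2.25 to 2.81) higher. PTHLH, parathyroid hormone-like hormone, which relaxes smooth muscle and signals locally, was at 111 CPM in members and 39.0 CPM in IGFBP2 0 stroma, 2.86-fold (2.42 to 3.38) higher. In IDO1 positive stroma AGT was at 816 CPM, ADM at 223 CPM and PTHLH at 119 CPM, the last above the members. SERPINA3-2 positive and MGP high stroma were below the members for each of these genes. HSD11B2, the enzyme that inactivates cortisol, was at 137 CPM in members and 61.5 CPM in IGFBP2 0 stroma, 2.23-fold (1.94 to 2.56) higher, and at 55.0 to 75.7 CPM in the IDO1 positive, SERPINA3-2 positive and MGP high stroma. CPE, carboxypeptidase E, which trims peptide prohormones, and CPM, a carboxypeptidase of the cell surface, went the other way. CPE stood at 44.5 UMIs per 1000000 in members and 207 in IGFBP2 0 stroma, 4.66-fold (3.92 to 5.57) lower. The CPM gene stood at 27.6 UMIs per 1000000 in members and 166 in IGFBP2 0 stroma, 6.01-fold (4.84 to 7.54) lower.

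Proteoglycan and matrix glycoprotein genes lay on both sides. KERA, keratocan, best known from the cornea, was at 379 CPM in members and 98.9 CPM in IGFBP2 0 stroma, 3.84-fold (3.48 to 4.24) higher, while LUM and DCN beside it on chromosome 5 had ratios of 1.03 and 1.01. KERA lies 37.9 kb from LUM and 80.4 kb from DCN, and LUM is the only gene annotated between KERA and DCN. OGN, osteoglycin, was at 289 CPM in members and 115 CPM in IGFBP2 0 stroma, 2.50-fold (2.27 to 2.76) higher, and OMD, osteomodulin, at 86.6 CPM and 40.1 CPM. OGN overlaps CENPP and EFEMP1 overlaps CCDC85A in the annotation, so that reads may be shared, and the labels do not say whether counting used the strand. CCDC80, a secreted matrix-associated protein, was at 646 CPM in members and 245 CPM in IGFBP2 0 stroma, 2.64-fold (2.47 to 2.82) higher, and EFEMP1, fibulin-3, at 59.5 CPM and 24.9 CPM. SPARCL1, hevin, was at 28.2 CPM in members and 111 CPM in IGFBP2 0 stroma, and FBLN5, fibulin-5, which organises elastic fibres, at 123 CPM and 265 CPM. Of 23 proteoglycan and glycoprotein genes not used by the rule, 6 were higher and 17 lower, 3 and 2 of them by 2-fold or more, with a median of -0.22 against -0.15 over all genes.

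Collagens outside the rule differed by less than 2-fold in the list and those in the stromal limit are a description. COL1A2 and COL3A1, of that limit, had ratios of 1.01 and 1.03, and COL1A1, also of that limit, was at 7792 CPM in members and 11168 CPM in IGFBP2 0 stroma and declined over the 5 IGFBP2 classes, at 11168, 9938, 8628, 7992 and 7011 CPM. COL27A1, a minor fibrillar collagen named from the ratios over all genes, was at 14.1 CPM in members and 54.4 CPM in IGFBP2 0 stroma. Of the 12 collagen genes of the list outside the rule, which do not include COL27A1, 4 were higher and 8 lower, 0 by 2-fold. Their median log2 ratio was -0.13, close to the -0.15 over all genes. Among 20 matrix proteases and inhibitors 9 were higher and 11 lower, with a median of -0.16, and the 1 past 2-fold was PLAU, urokinase, at 71.2 CPM in members and 158 CPM in IGFBP2 0 stroma.

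CEMIP, which binds hyaluronan and is needed for its breakdown, was at 407 CPM in members and 136 CPM in IGFBP2 0 stroma, 2.99-fold (2.74 to 3.27) higher. HAPLN1, the link protein that fastens proteoglycans to hyaluronan, was at 189 CPM in members and 786 CPM in IGFBP2 0 stroma, 4.15-fold (3.82 to 4.52) lower. CD44, the hyaluronan receptor, was at 17.2 CPM in members and 68.2 CPM in IGFBP2 0 stroma. An HAPLN1 UMI was found in 28.8% of members, 62.0% of IGFBP2 0 cells and 6.88% of leukocytes, and after thinning in 14.8%, 45.5% and 3.61%. HAPLN1 and EDIL3, an integrin-binding matrix protein at 11.7 CPM in members and 78.6 CPM in IGFBP2 0 stroma, lie 187 kb apart on chromosome 2.

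HPGD, the dehydrogenase that inactivates prostaglandins, was at 49.1 CPM in members and 306 CPM in IGFBP2 0 stroma, 6.23-fold (5.30 to 7.37) lower. SULT1E1, the sulfotransferase that inactivates oestrogen, gave the lowest ratio, with 4.30 CPM in members and 61.9 CPM in IGFBP2 0 stroma, 14.4-fold (8.48 to 26.6) lower. The receptors of the steroids differed little: ESR1 was at 93.6 CPM in members and 94.4 CPM in IGFBP2 0 stroma and PGR at 31.3 CPM and 38.7 CPM. Of 16 steroid receptor and target genes 4 were higher and 12 lower, 1 by 2-fold higher, which was HSD11B2, and 0 by 2-fold lower. Their median log2 ratio was -0.16, close to the -0.15 over all genes.

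**Figure D3:**
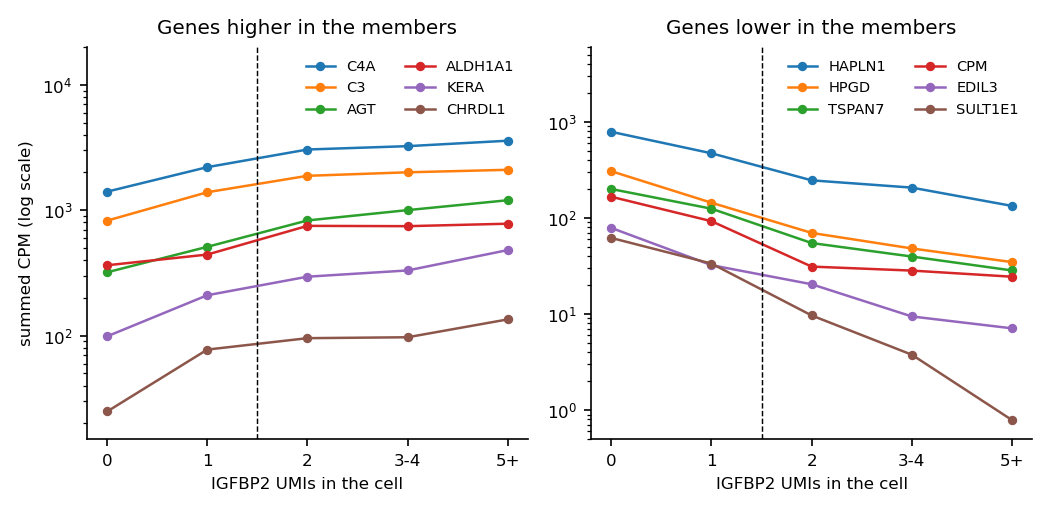
Levels of selected highest and lowest genes (CPM, log axis) over stromal cells with 0, 1, 2, 3 to 4 and 5 or more IGFBP2 UMIs on day 12, within the limits on IDO1, SERPINA3-2 and MGP. KERA reaches 481 CPM and HPGD 34.7 CPM at 5 or more UMIs, against 98.9 and 306 CPM at 0.

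CHRDL1, a secreted BMP antagonist, gave the highest ratio, with 111 CPM in members and 24.9 CPM in IGFBP2 0 stroma, 4.48-fold (3.69 to 5.45). BMP4, a ligand, was at 241 CPM in members and 149 CPM in IGFBP2 0 stroma. BMPER, which binds BMPs outside the cell, was at 26.1 CPM in members and 138 CPM in IGFBP2 0 stroma, 5.28-fold (4.22 to 6.69) lower. The transcriptional targets ID1 and ID3 were at 433 and 212 CPM in members and at 688 and 371 CPM in IGFBP2 0 stroma, and TGFB1 was at 28.2 CPM in members and 64.5 CPM in IGFBP2 0 stroma. Of 13 BMP and TGF beta genes 6 were higher and 7 lower, with TGFB1 alone past 2-fold among them and a median of -0.20 beside -0.15 over all genes, and BMPER and CHRDL1 are named from the ratios over all genes. In WNT signalling, the secreted antagonist FRZB was at 204 CPM in members and 668 CPM in IGFBP2 0 stroma, 3.27-fold (3.01 to 3.55) lower, DKK1, a second antagonist, at 1243 CPM and 2122 CPM, and the ligand WNT5A at 102 CPM and 152 CPM. Of 9 WNT genes 3 were higher and 6 lower. Lower by 2-fold or more were 3 (FRZB, DKK3 and WNT6), DKK3 with -0.90 depth-matched, beside 2.48% of all genes. The median log2 ratio of the 9 genes was -0.74, with and without depth matching, beside -0.15 over all genes.

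Growth factor and immune genes lay on both sides of IGFBP2 0 stroma. FGF10, a stromal ligand for epithelial receptors, was at 83.2 CPM in members and 174 CPM in IGFBP2 0 stroma, VEGFD, a vessel growth factor, at 315 CPM and 223 CPM, and PDGFD at 22.4 CPM and 7.80 CPM. Depth-matched, the log2 ratio of FGF10 was -0.97. All 10 antigen presentation genes at 50 CPM or more were higher in members, 0 by 2-fold, with B2M at 15009 CPM in members and 12716 CPM in IGFBP2 0 stroma, and the median log2 ratio of 0.23 came to 0.12 with depth matching. Only 12 of the 19 listed antigen presentation genes were matched by symbol, and SLA-1, SLA-2, SLA-3 and SLA-DRA were not. Of 21 interferon response genes 8 were higher and 13 lower, with ISG15 at 1396 CPM in members and 2149 CPM in IGFBP2 0 stroma. The median log2 ratio of this list was -0.30, beside -0.15 over all genes. WARS1, a tryptophan tRNA ligase induced by interferon gamma, was the 1 gene of that list past 2-fold, at 203 CPM in members and 99.2 CPM in IGFBP2 0 stroma, with a log2 ratio of 0.86 depth-matched. Of 12 chemokine and cytokine genes 5 were higher and 7 lower, with a median of -0.13, and PTX3, a soluble pattern recognition protein, was at 56.5 CPM in members and 26.9 CPM in IGFBP2 0 stroma. Of genes that tissue dissociation induces, 11 of 14 were lower in members with a median of -0.24, and 9 of 9 glycolysis genes were lower with a median of -0.23, beside the median of -0.15 over all genes; 0 genes of either list passed 2-fold. Of 16 oxidant and xenobiotic genes 8 were higher and 8 lower, among them CYP1B1, a cytochrome P450 acting on oestrogens and retinoids, at 2229 CPM in members and 1272 CPM in IGFBP2 0 stroma, and SELENOP, selenoprotein P, at 1614 CPM and 2652 CPM. Of 19 stromal transcription factors 3 were higher and 16 lower, 0 by 2-fold, with a median log2 ratio of -0.17 that was close to the -0.15 over all genes. S phase, G2 and M phase, cholesterol and prostaglandin genes had 2 genes or fewer at 50 CPM.

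**Figure D4:**
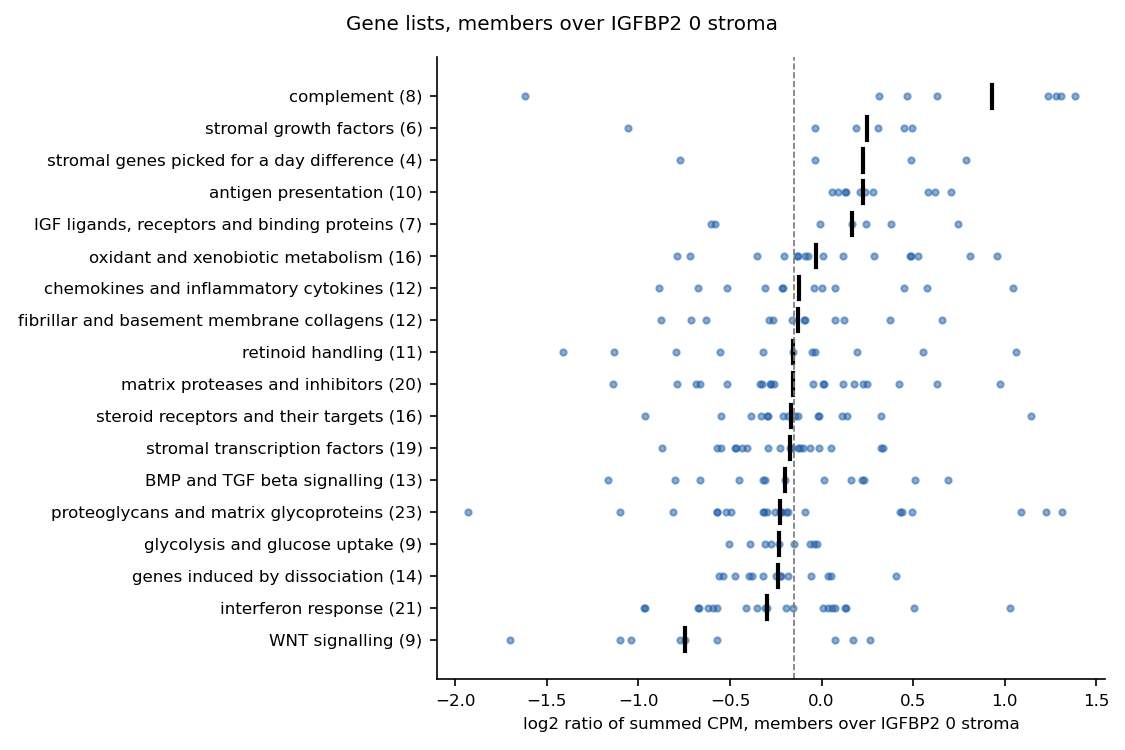
Log2 ratio of members over IGFBP2 0 stroma (horizontal axis) for each gene at 50 CPM or more in the functional lists with 4 or more such genes, with the median of each list as a bar and the median of all genes tested, -0.15, as a dashed line. Complement lies to the right with a median of 0.93 and WNT signalling to the left with -0.74.

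The remaining genes with extreme ratios have no list in common, and CLU among them belongs to the complement list. ABLIM1, an actin-binding protein, was at 101 CPM in members and 36.3 CPM in IGFBP2 0 stroma, and CLU, clusterin, an extracellular chaperone, at 63.5 CPM and 25.1 CPM. Among the lowest ratios, GALNT18, of the enzyme family that starts mucin-type sugar chains, was at 27.3 CPM in members and 148 CPM in IGFBP2 0 stroma, and TSPAN7, a tetraspanin, at 39.6 CPM and 199.7 CPM. MAPT, the microtubule protein tau, was at 12.0 CPM in members and 51.4 CPM in IGFBP2 0 stroma, CLEC1A, a C-type lectin, at 25.8 CPM and 103 CPM, and PID1, an adaptor protein, at 19.0 CPM and 74.2 CPM.

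The stroma with 1 IGFBP2 UMI, which the rule left out, lay between the 2 sets. These cells share their comparator with the members, and the 15 highest and 15 lowest genes were chosen against it, so the values that follow are a description. There 4 genes (0.134%) were 2-fold or more higher and 5 (0.168%) 2-fold or more lower than in IGFBP2 0 stroma. All 15 highest genes were higher and all 15 lowest genes lower in these 692 cells than in IGFBP2 0 stroma, with median log2 ratios of 0.67 and -0.72. Over the 5 IGFBP2 classes, 13 of the 15 highest and 12 of the 15 lowest genes had levels that followed the order of the classes, whose end classes belong to the contrast that chose the genes. AGT was at 320.4, 511, 829, 1002 and 1202 CPM, and HPGD at 306, 144, 69.8, 48.1 and 34.7 CPM from 0 to 5 or more IGFBP2 UMIs.

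The 15 highest and 15 lowest genes were also counted cell by cell, as a description, since the same cells chose them. With each cell thinned to 1000 UMIs, members held UMIs of 4.17 ± 1.69 of the 15 highest genes (SD over 1168 cells), against 2.06 ± 1.48 in 2880 IGFBP2 0 cells. UMIs of 3 or more of these genes were found in 83.7% of members and 34.2% of IGFBP2 0 cells. Of the 15 lowest genes, none had a UMI in 65.4% of members and 20.5% of IGFBP2 0 cells. Cells of the 2 sets overlapped, since 34.2% of IGFBP2 0 cells also carried 3 or more of the highest genes.

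**Figure D5:**
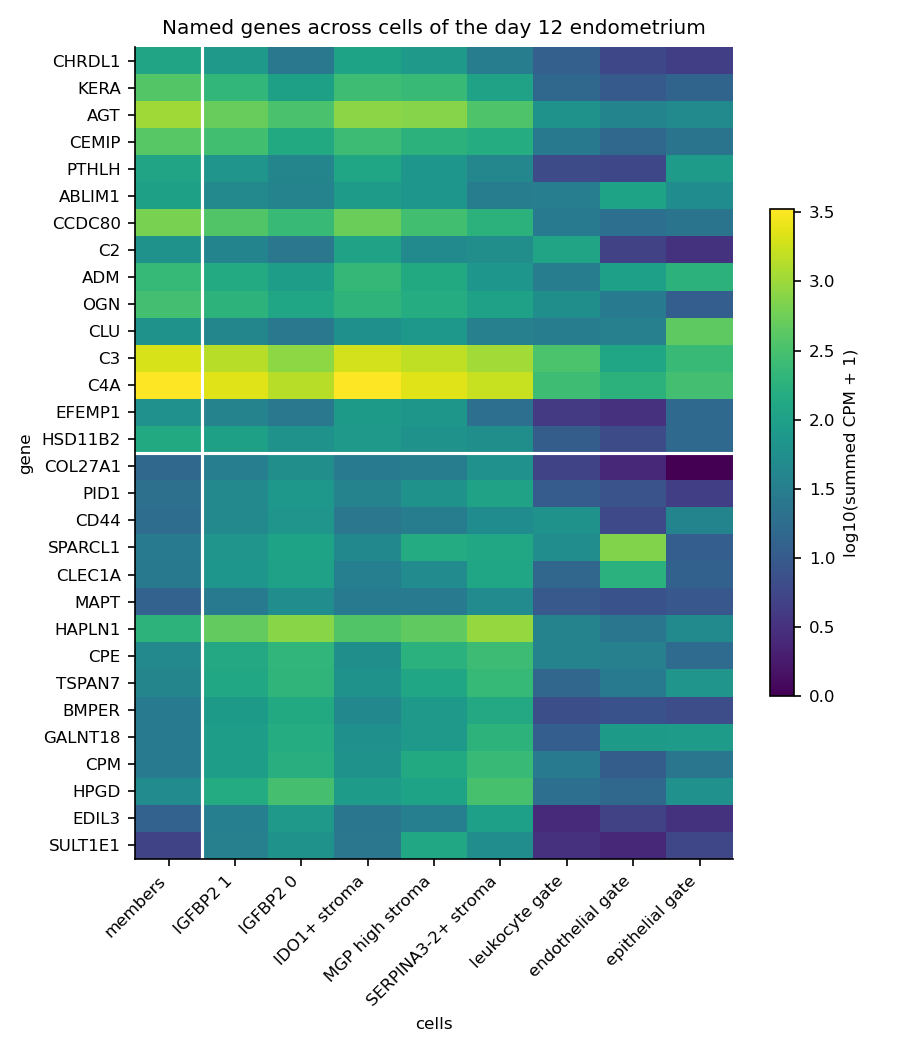
Levels of the highest and lowest genes in each group of cells of the day 12 endometrium, with the members in the first column and colour giving log10 of the level in CPM with 1 added. The lowest 15 genes are lower in members than in IDO1 positive, SERPINA3-2 positive and MGP high stroma, while EFEMP1, for example, is at 81.9 CPM in IDO1 positive stroma against 59.5 CPM in members.

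Against the 3 other stromal classes of day 12, members were highest for 11 of the 15 highest genes and lowest for all 15 lowest genes. Among these 11 are near ties with IDO1 positive stroma, which had C4A at 3299 CPM, ADM at 223 CPM and CHRDL1 at 109 CPM. Members had 3319, 228 and 111 CPM in the same order. KERA was at 379 CPM in members and at 266, 107 and 232 CPM in IDO1 positive, SERPINA3-2 positive and MGP high stroma, and CEMIP at 407 CPM in members and at 257, 150.2 and 183 CPM. HPGD was at 49.1 CPM in members and at 87.6, 311 and 109.6 CPM in the same 3 classes. IDO1 positive stroma, which held IGFBP2 at 926 CPM, was between members and IGFBP2 0 stroma for KERA, CEMIP and HPGD. The genes were chosen by the contrast within members and IGFBP2 0 stroma, so these counts describe and do not test.

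The day 9 endometrium, which the rule did not use, held few such cells. The same limits took 121 of 5429 day 9 stromal cells, 2.23% (1.85 to 2.66%), against 19.0% (18.01 to 19.98%) on day 12. Of these 121 cells 63 held 2 IGFBP2 UMIs, and the highest value was 7. Day 9 cells were deeper, with medians of 3892 UMIs in the 121 cells and 2686 UMIs in the 5030 day 9 cells without IGFBP2. Of 2940 genes, 36 (1.22%) were 2-fold or more higher and 130 (4.42%) 2-fold or more lower in the 121 cells than in day 9 IGFBP2 0 stroma. Ribosomal protein genes took 20.3% of UMIs in the 121 cells and 17.3% in day 9 IGFBP2 0 stroma.

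Both sets of genes were read on day 9. Of the 15 lowest genes of day 12, 13 were also lower in the 121 cells than in day 9 IGFBP2 0 stroma, 10 of them by 2-fold or more and with intervals clear of 1. Of those 10, EDIL3, TSPAN7 and CD44 rested on 3 counts in the 121 cells and the CPM gene on 1. HPGD was at 38.8 CPM in the 121 cells and 174 CPM in day 9 IGFBP2 0 stroma, 4.47-fold (2.86 to 7.44) lower, HAPLN1 at 69.5 CPM and 306 CPM, and GALNT18 at 14.3 CPM and 90.8 CPM. SULT1E1 was at 10.2 CPM, from 5 counts, in the 121 cells and 7.44 CPM in day 9 IGFBP2 0 stroma. Of the 15 highest genes, 9 were higher on day 9 as well, 5 of them by 2-fold or more, and 7 had intervals above 1; C2, among the 9, rested on 3 counts. AGT was at 359.8 CPM in the 121 cells and 135 CPM in day 9 IGFBP2 0 stroma, 2.67-fold (2.27 to 3.11) higher, CHRDL1 at 85.9 CPM and 34.0 CPM, PTHLH at 53.2 CPM and 7.24 CPM, EFEMP1 at 71.5 CPM and 10.96 CPM, and CCDC80 at 626 CPM and 313 CPM. Several others were close to level on day 9: KERA at 343 CPM in the 121 cells and 382 CPM in day 9 IGFBP2 0 stroma, CEMIP at 178 CPM in both, and C3 at 133 CPM and 152 CPM. ABLIM1, from 12 counts, was at 24.5 CPM in the 121 cells and 55.6 CPM in day 9 IGFBP2 0 stroma.

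Over the 2553 genes that reached 50 CPM in the contrasts of both days, 19 were 2-fold higher on day 12 and 30 on day 9, and 6 were so on both, 31.6% of the day 12 list, beside 1.18% of all genes called on day 9, and 20% of the day 9 list, beside 0.744% of all genes called on day 12. These 6 were AGT, CHRDL1, EFEMP1, OMD, PDGFRL and PTHLH. Of the genes lower by 2-fold, 53 on day 12 and 99 on day 9, 26 were shared, 49.1% of the day 12 list beside 3.88% of all genes and 26.3% of the day 9 list beside 2.08%, and they included HPGD, HAPLN1, FRZB, SPARCL1, GALNT18, CLEC1A and STRA6. On day 9, 14 of the 19 higher genes had the same sign, 73.7% beside 33.4% of all genes with that sign, and 49 of the 53 lower genes had the same sign, 92.5% beside 66.6%. With 1 library per day the difference between days was not tested.

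Set against the 121 day 9 cells, members differed in more genes than they did from IGFBP2 0 stroma of their own day. Of 2944 genes 348 (11.8%) were 2-fold or more higher and 197 (6.69%) 2-fold or more lower in members. The same contrast of days in IGFBP2 0 stroma gave 288 of 3233 genes (8.91%) higher and 159 (4.92%) lower, so a day difference of this order was also present in stroma without IGFBP2. Day, animal and library cannot be told apart here. C3 was at 2007 CPM in members and 133 CPM in the 121 day 9 cells, 15.1-fold (11.8 to 19.6) higher, beside 5.44-fold in IGFBP2 0 stroma. ALDH1A1 was at 761 CPM in members and 57.2 CPM in the day 9 cells, 13.3-fold (9.18 to 20.1) higher, beside 7.99-fold in IGFBP2 0 stroma. KERA had like levels on the 2 days in cells with IGFBP2, 379 CPM in members and 343 CPM in the day 9 cells, and was 3.86-fold lower on day 12 than on day 9 in IGFBP2 0 stroma.

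The highest day ratios include those of GBP1 and SPINK9, whose levels in members were near those of IGFBP2 0 stroma of day 12. GBP1, a guanylate-binding protein induced by interferon gamma, was at 539 CPM in members and 6.13 CPM, from 3 counts, in the 121 day 9 cells, and at 526 CPM in day 12 IGFBP2 0 stroma. GHSR, the ghrelin receptor, was at 249 CPM in members and 8.18 CPM in the day 9 cells, KIF9, a kinesin, at 742 CPM and 47.0 CPM (429 CPM in day 12 IGFBP2 0 stroma), and IL6, a cytokine, at 91.8 CPM and 2.04 CPM, the last from 1 count. SPINK9, a protease inhibitor, was at 65.1 CPM in members and 67.9 CPM in day 12 IGFBP2 0 stroma. It had no UMI in the day 9 cells, where a count of 0 allows up to 3. Among the genes lower on day 12, IGFBP6 was at 104 CPM in members and 1333 CPM in the day 9 cells, 12.8-fold (11.2 to 14.7) lower. LGALS1, galectin-1, which binds cell-surface sugars, was at 2112 CPM in members and 10139.5 CPM in the day 9 cells, CRABP1, a retinoic acid carrier, at 193 CPM and 928 CPM, and LOXL2, a collagen cross-linking oxidase, at 35.9 CPM and 196 CPM. FNDC1 was at 77.3 CPM in members and 515 CPM in the day 9 cells.

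Interferon response and antigen presentation lists were far higher in members than in the 121 day 9 cells. There 15 of 21 and 9 of 10 genes were 2-fold or more higher, beside 11.8% of all genes. Median log2 ratios were 1.97 and 2.43, beside 0.02 over all genes. This was not particular to cells with IGFBP2: in IGFBP2 0 stroma GBP1 was 32.8-fold and C3 5.44-fold higher on day 12. Medians of the lists between days were not taken in IGFBP2 0 stroma. Complement followed with 6 of 8 genes 2-fold higher and a median of 2.21. Collagens ran the other way, with 6 of 12 genes 2-fold or more lower, beside 6.69% of all genes, and a median of -0.90. A list of 15 stromal genes picked for their day difference had 4 genes at 50 CPM or more, and all 4 were 2-fold higher, which follows from how it was chosen.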

How the data were processed

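The authors deposited counts of UMIs per gene and cell barcode for the 4 libraries, made by a 3 prime droplet kit per the labels. Per the submitters' processing notes, Cell Ranger 6.1.2 and Sscrofa11.1 were used; cell calling and strand are not given in the sources used here. Deposited totals were 27589239 UMIs for the day 12 endometrium (11757 barcodes) and 27250593 for the day 9 endometrium (9483 barcodes). Of 21280 genes, 14811 carried a symbol in the deposited files and 694 more came from a RefSeq-based table, which also gave coordinates.

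The counts were summed over cells and scaled to CPM (Python 3.11.15, numpy 2.4.6, scipy 1.17.1, pandas 2.3.3, matplotlib 3.10.9). Log2 ratios have 1 CPM added; folds and their intervals (exact conditional binomial) do not. A gene was called at 2-fold among genes at 50 CPM or more in either set, and IGFBP2 was left out. No doublet caller was run. Among cells with a stromal sum under 20000 CPM, epithelial cells met 4000 CPM of the epithelial genes. Below that limit, leukocytes had a PTPRC UMI and PECAM1, CDH5, VWF, KDR, CLDN5 and EGFL7 at a sum under 1000 CPM. Endothelial cells had no PTPRC UMI and that sum at 1000 CPM or more. Cells outside the stroma that met none of these limits were in no class. Named genes are the 15 highest and 15 lowest ratios of members, 10 and 10 of the day contrast, and up to 6 genes from each of 22 lists (471 of 522 genes matched), without mitochondrial, ribosomal protein, haemoglobin, unnamed and rule genes. Named outside this rule, after their values were seen, were CFI, ESR1, PGR, TPPP3, WNT5A, PDGFRL and the cell type markers. The members and the lists were chosen with earlier results of these data known. The ratio step was tested on simulated counts. The rule also names 1 gene that is not reported here.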

Additional observations from a re-analysis of the deposited data

Results flagged for a closer look

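Of the genes that the naming rule took, 4 had opposite signs on the 2 days, with day 12 members over IGFBP2 0 stroma set beside the 121 day 9 cells of the same limits over day 9 IGFBP2 0 stroma, and with both counting intervals clear of 1. With 1 library per day these differences were not tested. ABLIM1 had a log2 ratio of 1.45 on day 12 and -1.15 on day 9, where it rested on 12 counts. CCL26, a chemokine that attracts eosinophils, had 0.57 on day 12 and -1.59 on day 9, with 264 CPM in members and 177 CPM in IGFBP2 0 stroma, and 245 CPM in the 121 day 9 cells and 741 CPM in day 9 IGFBP2 0 stroma. COL6A3, a chain of collagen VI, had -0.88 on day 12 and 0.34 on day 9, with 328 CPM in members and 604 CPM in IGFBP2 0 stroma, and 875 CPM in the 121 day 9 cells and 693 CPM in day 9 IGFBP2 0 stroma. SLA-DQB1, a class II antigen-presenting chain, had 0.58 on day 12 and -1.31 on day 9, where it rested on 28 counts. Its day 12 ratio was 0.12 with IGFBP2 0 stroma weighted to the depth of the members.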

How the results depend on the processing

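No paired analysis was possible because each group holds 1 library, and no replicate could be left out. The share of members among day 12 stroma was 23.4% with 2000 UMIs or more, 16.5% with stromal genes at 40000 per 1000000 UMIs, 13.0% with 3 or more IGFBP2 UMIs and 10.9% with cells thinned to 1000 UMIs; the day 9 share was 4.07%, 1.07% and 0.556% under the last 3 of these. Genes 2-fold higher and lower than in IGFBP2 0 stroma numbered 41 and 139 at 20 CPM and 153 and 539 with no minimum, and against the day 9 cells 665 and 432 at 20 CPM and 2322 and 1539 with no minimum. Under the other settings those counts were 24 to 33, 58 to 91, 316 to 441 and 176 to 238. The ratios of the 30 named genes kept their sign under 12 settings, and all stayed past 2-fold except CLU, whose log2 ratio was 0.81 with stromal genes at 40000 per 1000000 UMIs. The low counts of the 121 day 9 cells (489177 UMIs) limit ratios of genes near 50 CPM.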
